A study of Arabidopsis thaliana with 4 samples.

Results

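Expansin, XTH, GH9 and TBL genes, 4 families that loosen and modify the plant cell wall, were followed in whole etiolated Arabidopsis thaliana seedlings of the double mutant ein3-1eil1-1 (ein3 eil1 below) and of wild type (Col-o in the labels). The members were all probe sets whose platform annotation names exactly 1 gene with an expansin (EXPA, EXPB, EXLA, EXLB), XTH, GH9 or TBL symbol. This gave 64 genes with 1 probe set each, out of 22746 probe sets other than controls: 18 expansins, 9 XTH, 15 GH9 and 22 TBL genes. A further 4 probe sets of these families name several genes and were left out. Seeds of both genotypes were kept cold for 3 days, given 4 hours of light and grown on MS medium at 22 °C for 4 days in darkness. Total RNA of each genotype was measured on 2 Affymetrix ATH1 arrays, and the labels record that the mutant holds much more protochlorophyllide, a chlorophyll precursor. The labels do not say how many seedlings went into a sample, and both genotypes are described for whole seedlings, without separate organs.

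Growth of a plant cell is set by how far its wall yields. Cellulose microfibrils lie in a matrix of xyloglucan and other hemicelluloses, and expansins loosen the contacts between these polymers without cutting them. XTH enzymes cut xyloglucan chains and rejoin them, GH9 enzymes cut beta-1,4-glucans such as cellulose, and TBL proteins transfer acetyl groups to wall polysaccharides. In darkness the hypocotyl lengthens almost wholly by cell expansion. Ethylene restrains this growth and tightens the apical hook through the transcription factors EIN3 and EIL1.

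Values below are quantile-normalised log2(intensity + 3) signals, differences are ein3 eil1 minus wild type with 2 arrays per genotype, and intervals are 95% intervals from limma. The deposited intensities were not on a common scale, with array medians of 50.8 and 85.2 in ein3 eil1 and 49.5 and 52.3 in wild type. By title the arrays form 2 pairs of 1 mutant and 1 wild-type array, pair 2 being the arrays whose titles call them biological replicates. The mean of 27 Bacillus control probe sets was 1.52 log2 units lower in pair 2 than in pair 1 and differed by at most 0.095 inside a pair, so differences within each pair are given too. EIN3 itself had signals of 6.51 and 7.22 in ein3 eil1, against 9.73 and 10.24 in wild type (difference -3.12, limma adjusted p = 0.0138), and no probe set is named EIL1 here. Of the organ and stage markers, the root gene PYK10 differed by -0.013 (interval -0.45 to 0.43). The reserve-mobilising gene ICL differed by -0.019 (interval -1.12 to 1.08) and SPCH of the stomatal lineage by -0.24 (interval -1.63 to 1.15). The last 2 intervals are too wide to show that the genotypes were alike, and PYK10 alone does not show an equal share of root. PORB, an oxidoreductase of protochlorophyllide, had 11.25 and 11.79 in ein3 eil1 and 12.21 and 13.09 in wild type (limma adjusted p = 0.417, and 0.00366 with the array pair as a block). Arrays of whole seedlings cannot tell fewer cells of a type from less RNA per cell.

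No member of the 4 families passed the threshold. Probe sets at or above an array's 40th percentile, 5.18, on at least 2 arrays were tested, which held for 40 of the 64 members (62.5%, against 61.7% of all probe sets). With limma, 0 of the 40 had an adjusted p under 0.05 in either direction, where 0.0784% of all 14031 tested probe sets were called higher and 0.214% lower. At an unadjusted p under 0.05, 1 member was higher (EXPA8) and 3 were lower (GH9B12, EXLB1 and XTH18), against 3.04% and 3.1% of all tested probe sets. With the array pair as a block, which leaves 1 residual degree of freedom per probe set, GH9B12 and XTH18 passed as lower and no member passed as higher. GH9B12 had been admitted to the test by its wild-type arrays alone, which fixed its sign. It therefore adds nothing to the 3 lower members at an unadjusted p or to the calls with the block, which leaves XTH18 in the block fit. That fit called 1.26% of all tested probe sets higher and 1.53% lower. Among probe sets not admitted through 1 genotype alone, it called 1 of 38 members lower (2.63%), against 1.39% of all 13727. With 2 arrays against 2, no gene can reach a two-sided exact permutation p below 0.333.

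Most estimated differences were small, though less often so than over all tested probe sets. The difference was within 0.5 log2 units in 29 of the 40 tested members (72.5%, against 81.3% of all tested probe sets). It was within 1 log2 unit in 38, all but GH9B12 and XTH18. In 27 members (67.5%, against 79% of all tested probe sets) the larger gap between 2 arrays of the same genotype exceeded the difference between genotypes. The median difference was -0.15 over the tested members and 0.0092 over all tested probe sets. In deposited signals the members' median was 0.26 and that of all tested probe sets 0.40. After normalisation it was -0.090 in pair 1 and -0.058 in pair 2. The interval of the difference was 1.47 log2 units wide at the median. It lay wholly within 1 log2 unit either way for 15 of the 40 members, against 6927 of all 14031 tested probe sets. For the other members a small difference is thus not shown.

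**Figure D1:**
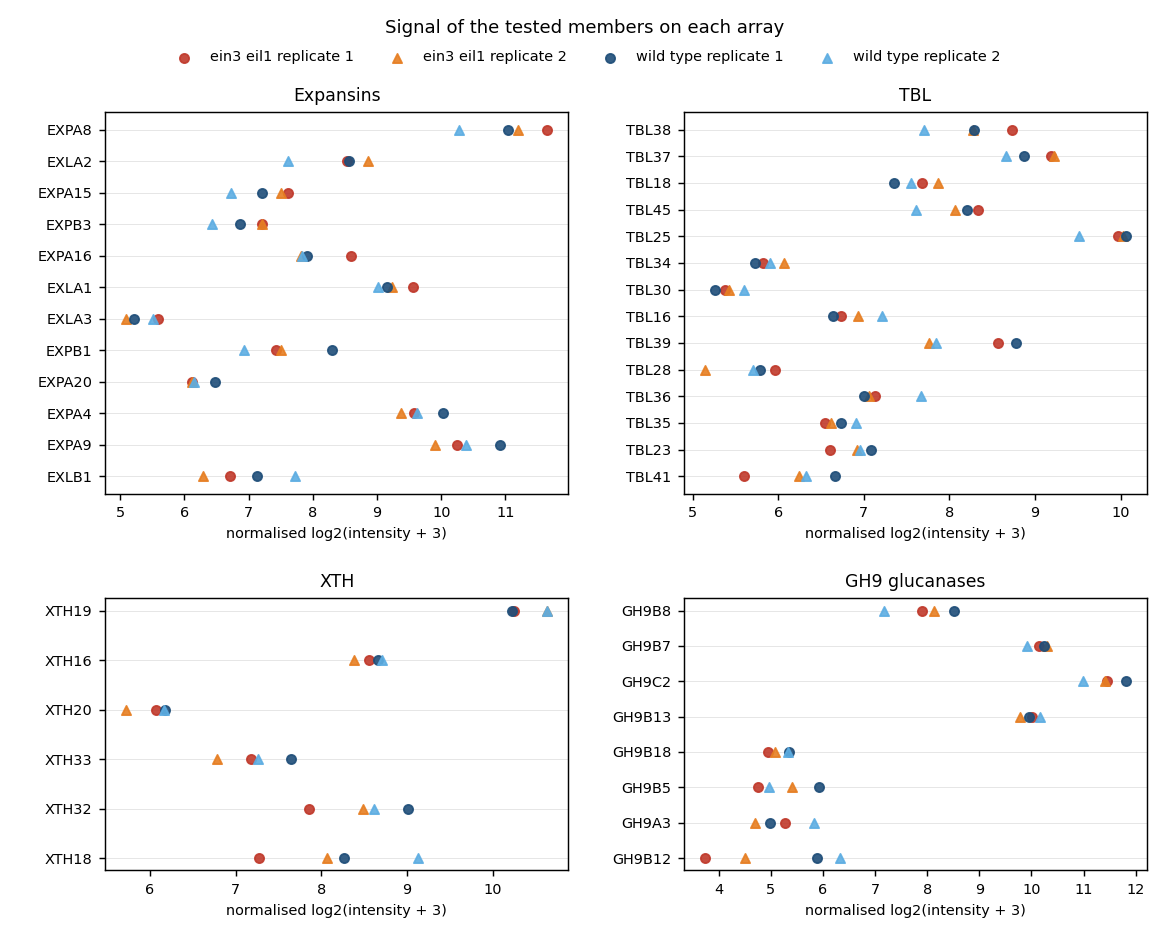
Normalised log2(intensity + 3) signal of the 40 tested members on the 2 ein3 eil1 arrays (red and orange) and the 2 wild-type arrays (dark and light blue), 1 row per member, ordered by the difference within each family. In 20 members the 4 points of the genotypes do not overlap, 6 with ein3 eil1 higher and 14 with ein3 eil1 lower. Of all tested probe sets, 16.5% lay higher and 15.1% lower without overlap. The 14 include GH9B12 and GH9B18, whose order was fixed by the filter.

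Both mutant values lay below both wild-type values in 14 tested members, where 15.1% of all tested probe sets did, and above them in 6, where 16.5% did. The 14 include GH9B12 and GH9B18, which passed the filter through their wild-type arrays alone, so the filter fixed their order. Leaving out every probe set that passed through 1 genotype alone, a step added after the data were seen, 12 of 38 members lay below wild type (31.6%) and 6 above (15.8%). Of all 13727 probe sets then left, 14.3% lay below and 15.7% above. The 14 also depend on the scaling between arrays, for they were 7 with median centring and 2 in deposited signals, where the 6 became 6 and 10. The shares of all tested probe sets moved as well. With median centring 13.1% lay below and 17.9% above, and in deposited signals 2.58% lay below and 33.3% above. The median of all tested probe sets was 0.40 in deposited signals, so signs below are those after normalisation. In deposited signals 14 of the 40 differences turned from below to above 0. They were 4 expansins (EXPA4, EXPA20, EXPB1 and EXLA3), 2 XTH genes (XTH16 and XTH20), GH9B13 and 7 TBL genes (TBL16, TBL23, TBL28, TBL30, TBL35, TBL36 and TBL39).

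Expansins lay on both sides. Of the 12 tested, 4 had both mutant values below wild type and 4 above, and the other 4 overlapped. Of all tested probe sets, 15.1% lay below and 16.5% above. The median difference was 0.14 and ran from -0.92 to 0.76. EXPA8, an alpha-expansin of the class that loosens walls in acid conditions, had 11.65 and 11.20 in ein3 eil1 and 11.04 and 10.28 in wild type. Both mutant arrays were higher, with a difference of 0.76 (interval 0.026 to 1.50, limma adjusted p = 0.795), and it was 0.60 in pair 1 and 0.92 in pair 2. EXPA15, also an alpha-expansin, had 7.62 and 7.50 in ein3 eil1 and 7.21 and 6.72 in wild type, a difference of 0.59 (interval -0.083 to 1.27, limma adjusted p = 0.901). EXPB3, of the beta class that is best known from grass pollen, had 7.22 and 7.21 in ein3 eil1 and 6.87 and 6.43 in wild type (difference 0.57, interval -0.099 to 1.23, limma adjusted p = 0.919). In these 3 genes the second wild-type array was the lowest of the 4, and the difference was larger in pair 2.

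On the other side stood EXLB1, the expansin-like gene of the B class, whose members share the expansin domains without a known loosening activity. EXLB1 had 6.71 and 6.30 in ein3 eil1 and 7.14 and 7.72 in wild type. The difference was -0.92 (interval -1.66 to -0.19, limma adjusted p = 0.601), with -0.42 in pair 1 and -1.42 in pair 2. EXPA9 had 10.25 and 9.90 in ein3 eil1 and 10.92 and 10.38 in wild type, a difference of -0.57 (interval -1.26 to 0.11, limma adjusted p = 0.919). EXPA4 had 9.57 and 9.38 in ein3 eil1 and 10.03 and 9.62 in wild type (difference -0.35, interval -1.01 to 0.31), and its sign turned in deposited signals (0.035). The alpha-expansins thus included genes on both sides of wild type, and no test of the difference between members was made.

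In all 3 expansin-like A genes the larger gap between 2 arrays of a genotype exceeded the difference between genotypes. EXLA1 had 9.56 and 9.24 in ein3 eil1 and 9.16 and 9.02 in wild type (difference 0.31, interval -0.34 to 0.96). EXLA2 had 8.53 and 8.86 in ein3 eil1 and 8.57 and 7.62 in wild type, so that its difference of 0.60 came from pair 2 (1.24) and was -0.037 in pair 1. EXPB1 stood out by its wild-type arrays, at 8.31 and 6.93, while the mutant arrays had 7.43 and 7.51. Its difference was -0.87 in pair 1 and 0.57 in pair 2. The remaining tested members, EXPA20 (-0.19), EXLA3 (-0.026) and EXPA16 (0.33), were each smaller than the gap between arrays of a genotype.

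**Figure D2:**
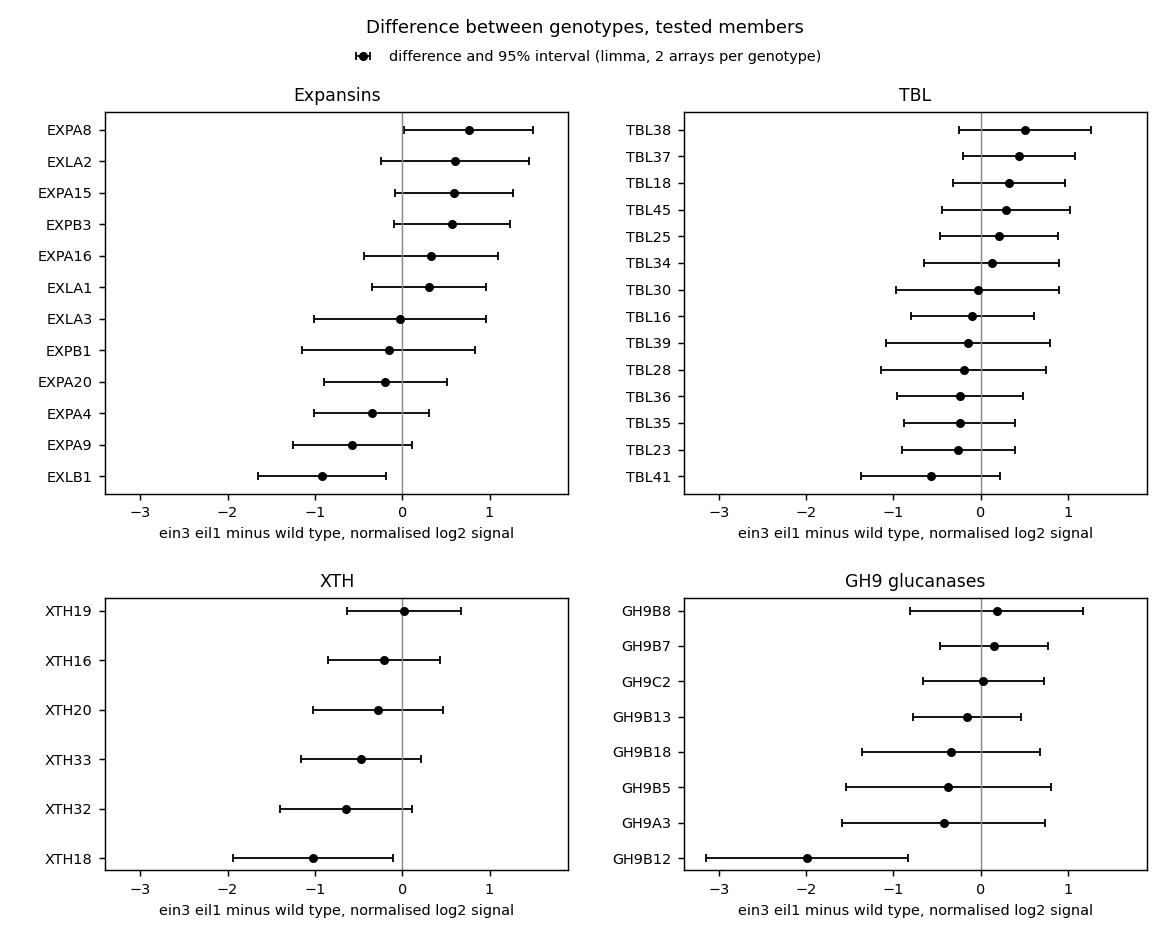
Difference between genotypes (ein3 eil1 minus wild type, normalised log2 signal) for the 40 tested members, with 95% intervals from limma over 2 arrays per genotype. The intervals of GH9B12, XTH18 and EXLB1 lie below 0 and that of EXPA8 above 0, while 36 include 0. None of the 4 passed after adjustment over all tested probe sets, and the sign of GH9B12 was fixed by the filter.

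In the XTH family the mutant values were the lower ones in 5 of the 6 tested genes, with no overlap between genotypes, where 15.1% of all tested probe sets lay so. The median difference was -0.37, and -0.0037 in deposited signals. Relative to the median of all tested probe sets it was -0.38, and -0.40 in deposited signals. None passed the threshold without the block. The count of 5 was 2 with median centring and 0 in deposited signals, where 13.1% and 2.58% of all tested probe sets lay so. XTH18 had 7.27 and 8.07 in ein3 eil1 and 8.26 and 9.13 in wild type. Within each pair the mutant array was lower by about the same amount, -0.99 in pair 1 and -1.06 in pair 2, while both genotypes were higher in pair 2. The difference was -1.03 (interval -1.94 to -0.11, limma adjusted p = 0.724, and 0.0296 with the pair as a block). XTH18 belongs to a group of XTH genes known for expression in roots. The 1 root gene listed, PYK10, had 13.09 and 13.35 in ein3 eil1 and 13.13 and 13.34 in wild type. Whether the share of root tissue differed was not tested.

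XTH32, from the branch of the family that holds enzymes cutting xyloglucan without rejoining it, had 7.86 and 8.48 in ein3 eil1 and 9.01 and 8.62 in wild type. The difference was -0.64 (interval -1.40 to 0.11, limma adjusted p = 0.919), and it was -1.15 in pair 1 and -0.13 in pair 2. XTH33, which carries a predicted membrane anchor, had 7.18 and 6.78 in ein3 eil1 and 7.64 and 7.26 in wild type. Its difference of -0.47 (interval -1.16 to 0.22) was nearly equal in the pairs, at -0.46 and -0.49. XTH20 and XTH16 differed by -0.27 and -0.21. XTH19 had 10.25 and 10.63 in ein3 eil1 and 10.22 and 10.63 in wild type, a difference of 0.017 (interval -0.64 to 0.67).

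XTH18 and XTH19 lie next to each other in the genome with no annotated gene between them. Both genes were higher in pair 2 in both genotypes, while the genotypes overlapped for XTH19 and not for XTH18. The difference of XTH18 minus that of XTH19 was -1.04, with -1.02 in pair 1 and -1.06 in pair 2. This contrast within an array does not depend on a scale factor of the array, and it has no test beyond its value in both pairs. Of 8 pairs of members of a family with at most 4 annotated genes between them, 3 had both genes tested. The other tested neighbours were TBL28 (-0.19) with TBL30 (-0.036), and EXLA3 (-0.026) with EXLA1 (0.31).

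GH9 endoglucanases held the member with the largest difference among the 40, GH9B12. Plant GH9 enzymes fall into the membrane-anchored class A, the secreted class B and class C, whose proteins end in a carbohydrate-binding module. GH9B12, a class B gene, had 3.73 and 4.50 in ein3 eil1 and 5.89 and 6.33 in wild type. In deposited intensity these are 9.7 and 25.1 in ein3 eil1 and 47.9 and 68.3 in wild type. Both mutant arrays were below the 40th percentile and both wild-type arrays above it. The difference was -1.99 (interval -3.15 to -0.83, limma adjusted p = 0.307, and 0.0473 with the pair as a block), with -2.15 in pair 1 and -1.83 in pair 2. Because the mutant signal is dim, its size followed the pseudocount, at -2.13 with 1 and -1.42 with 16.

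GH9B18 had 4.95 and 5.07 in ein3 eil1 and 5.36 and 5.34 in wild type (difference -0.34, interval -1.35 to 0.68). The other 6 tested GH9 members overlapped. GH9C2, of class C, had 11.45 and 11.41 in ein3 eil1 and 11.81 and 10.99 in wild type, so that the mutant arrays lay between the wild-type arrays (difference 0.032, interval -0.66 to 0.72). GH9B7 (0.15) and GH9B13 (-0.16) also had intervals within 1 log2 unit. GH9B8 had 7.91 and 8.13 in ein3 eil1 and 8.51 and 7.16 in wild type, with -0.60 in pair 1 and 0.96 in pair 2. GH9A3, a class A gene, and GH9B5 differed by -0.42 and -0.37, each with opposite signs in the pairs. In all, 2 of the 8 tested GH9 members had the same sign in both pairs. These were GH9B12 and GH9B18, whose order the filter had fixed.

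None of the TBL genes passed the threshold. The 14 tested members ran from -0.57 to 0.51, 8 below 0 and 6 above. The median difference was -0.065, and 0.30 in deposited signals, where that of all tested probe sets was 0.40. TBL37 had 9.19 and 9.22 in ein3 eil1 and 8.87 and 8.66 in wild type, a difference of 0.44 (interval -0.20 to 1.08, limma adjusted p = 0.996). TBL18 had 7.68 and 7.86 in ein3 eil1 and 7.35 and 7.55 in wild type, a difference of 0.32 that was 0.33 in pair 1 and 0.31 in pair 2. The mutant arrays were higher in both genes. TBL38 had the highest difference, 0.51, but its lower mutant array (8.27) was just under the higher wild-type array (8.29).

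The lowest TBL difference was that of TBL41, with 5.59 and 6.24 in ein3 eil1 and 6.66 and 6.32 in wild type (difference -0.57, interval -1.37 to 0.22, limma adjusted p = 0.986). It was -1.06 in pair 1 and -0.084 in pair 2. TBL23, a mannan acetyltransferase, had 6.60 and 6.92 in ein3 eil1 and 7.08 and 6.96 in wild type (difference -0.26). TBL35, one of the xylan acetyltransferases of the family, had 6.55 and 6.62 in ein3 eil1 and 6.74 and 6.91 in wild type (difference -0.24). The signs of TBL23 and TBL35 turned in deposited signals, to 0.14 and 0.16. The other xylan acetyltransferase genes tested were TBL28, TBL30 and TBL34, at -0.19, -0.036 and 0.13, and all 3 overlapped. TBL25, like TBL23 a mannan acetyltransferase, differed by 0.21, and TBL16, TBL36, TBL39 and TBL45 ran from -0.24 (TBL36) to 0.29 (TBL45) with overlap.

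**Figure D3:**
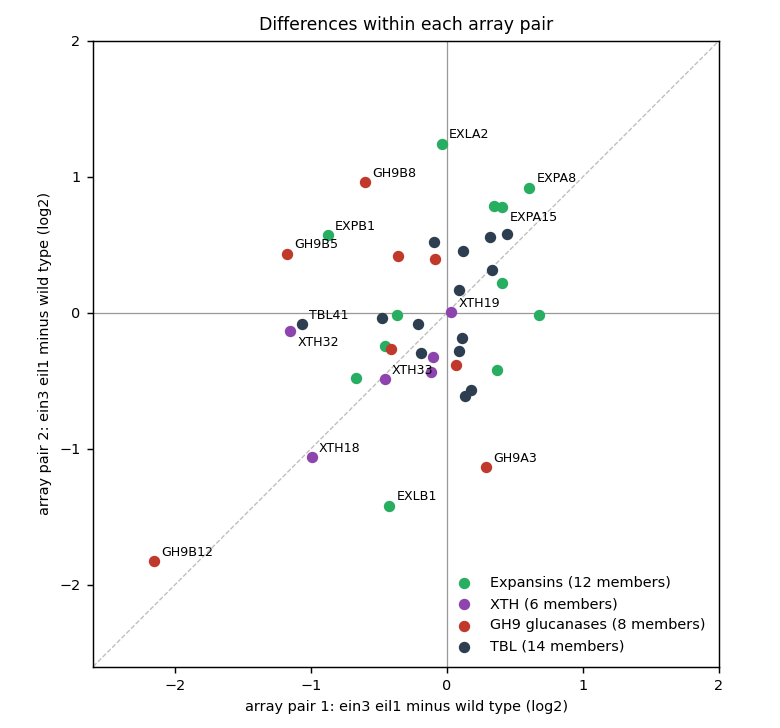
Difference between genotypes in array pair 2 against that in array pair 1 (ein3 eil1 minus wild type, log2) for the 40 tested members, coloured by family; the dashed line marks equal differences. GH9B12, XTH18 and XTH33 lie near the line below 0, while GH9B5, GH9B8, EXPB1 and GH9A3 have opposite signs in the pairs.

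The array pairs repeated the differences of members only in part. The sign was the same in both pairs for 25 of the 40 tested members (62.5%, against 56.9% of all tested probe sets), 15 lower and 10 higher. All 6 XTH members had the same sign in both pairs, 5 of them lower and XTH19 higher by only 0.030 and 0.0048. The same held for 8 of 12 expansins, 9 of 14 TBL and 2 of 8 GH9 members. Those 2 GH9 members, GH9B12 and GH9B18, passed the filter through their wild-type arrays alone. The filter thus fixed their sign in both pairs, and they add nothing to the 25 or the 15. Across the 40 members the Pearson correlation of the pair differences was 0.39, against 0.41 over all tested probe sets, and it was 0.19 without GH9B12. The points share the 4 arrays and their normalisation.

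The remaining 24 members were too dim to be tested, and 20 of them reached the 40th percentile on no array. Among the expansins these were EXPA7, EXPA18, EXPA21, EXPA24, EXPB2 and EXPB5. EXPA7 and EXPA18 are known as root-hair expansins. EXPA7 had deposited intensities of 2.9 and 4.5 in ein3 eil1 and 3.9 and 16.9 in wild type. EXPA18 had 22.9 and 53.5 in ein3 eil1 and 27.6 and 13.9 in wild type, and reached the percentile on 1 mutant array. The dim XTH members were XTH21, XTH26 and XTH29. XTH21 had intensities of 1.3 and 1.9 in ein3 eil1 and 1.2 and 1.9 in wild type.

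The dim GH9 members were GH9A4, GH9B6, GH9B11, GH9B16, GH9B17, GH9C1 and GH9C3. GH9B11, the direct neighbour of GH9B12, had intensities of 3 and 1.5 in ein3 eil1 and 0.8 and 2.3 in wild type. GH9B16, GH9B17 and GH9B18 form a run of adjacent genes, of which GH9B18 alone passed the filter. The dim TBL members were TBL15, TBL19, TBL20, TBL21, TBL26, TBL32, TBL42 and TBL43. TBL26, a mannan acetyltransferase like TBL23 and TBL25, had intensities of 41.6 and 39.1 in ein3 eil1 and 25.2 and 15.2 in wild type. These deposited intensities are not on a common scale. After normalisation its signals were 5.66 and 4.99 in ein3 eil1 and 5.03 and 4.16 in wild type, so the genotypes overlapped. Without detection calls, a low signal is not shown to be the absence of a transcript.

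**Figure D4:**
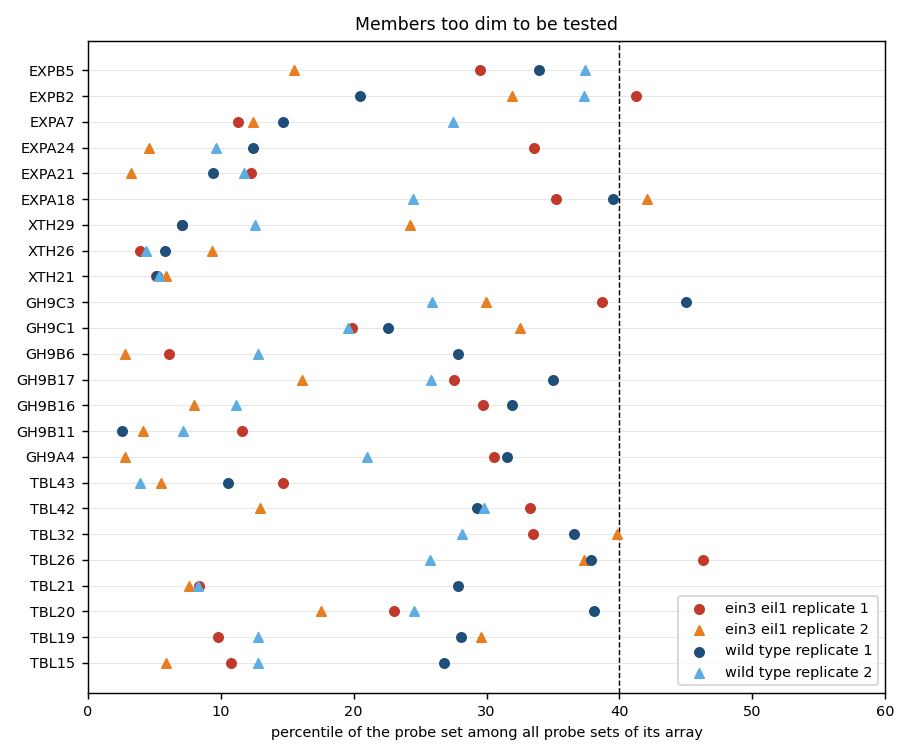
Position of the 24 untested members among all probe sets of each array, as a percentile, for the 2 ein3 eil1 arrays (red and orange) and the 2 wild-type arrays (dark and light blue). The dashed line marks the 40th percentile, which 4 of these members (EXPB2, EXPA18, GH9C3 and TBL26) reached, on 1 array each.

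Other genes of the wall gave no call either. Of 20 genes in 5 lists of wall synthesis, pectin modification, wall sensing and laccases, 14 were tested and 0 passed the limma threshold, 0 with the block and 0 at an unadjusted p under 0.05. The mutant values lay above wild type without overlap in 6 and below it in 2, where 16.5% and 15.1% of all tested probe sets did. CSLC04, which makes the glucan backbone of xyloglucan, had 10.43 and 10.75 in ein3 eil1 and 9.97 and 10.11 in wild type, a difference of 0.55 (limma adjusted p = 0.892). CSLA03, of the mannan synthase family, had 6.56 and 7.07 in ein3 eil1 and 5.94 and 6.26 in wild type, a difference of 0.71 (limma adjusted p = 0.821). IRX15, a gene of xylan synthesis, had 5.21 and 5.56 in ein3 eil1 and 5.15 and 2.59 in wild type. Its difference of 1.52 rests on the second wild-type array. IRX15 passed the filter, at 5.18, through its mutant arrays alone, so the filter fixed its order and it adds nothing to the 6.

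Among pectin genes, 5 were tested, and the 4 without overlap split evenly. The pectin methylesterase genes PMEPCRF (-0.42) and ATPMEPCRD (-0.40) were lower in both mutant arrays, and ATPMEPCRB (0.58) and the galacturonosyltransferase-family gene GAUT15 (0.39) higher. The wall-sensing receptor kinase THE1 had 8.86 and 8.85 in ein3 eil1 and 8.61 and 8.28 in wild type, a difference of 0.42, and FER differed by 0.17. COB, which orients cellulose deposition, differed by 0.054. ANX1, ANX2, LAC16, ADPG1, CSLA01 and CSLC12 were too dim to be tested. For comparison, in a list of 4 ethylene and growth genes chosen with earlier results known, 3 passed as lower: EIN3, ARL (-3.23) and EXO (-2.30). The last, RTE1 (-0.98), passed only with the block.

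**Figure D5:**
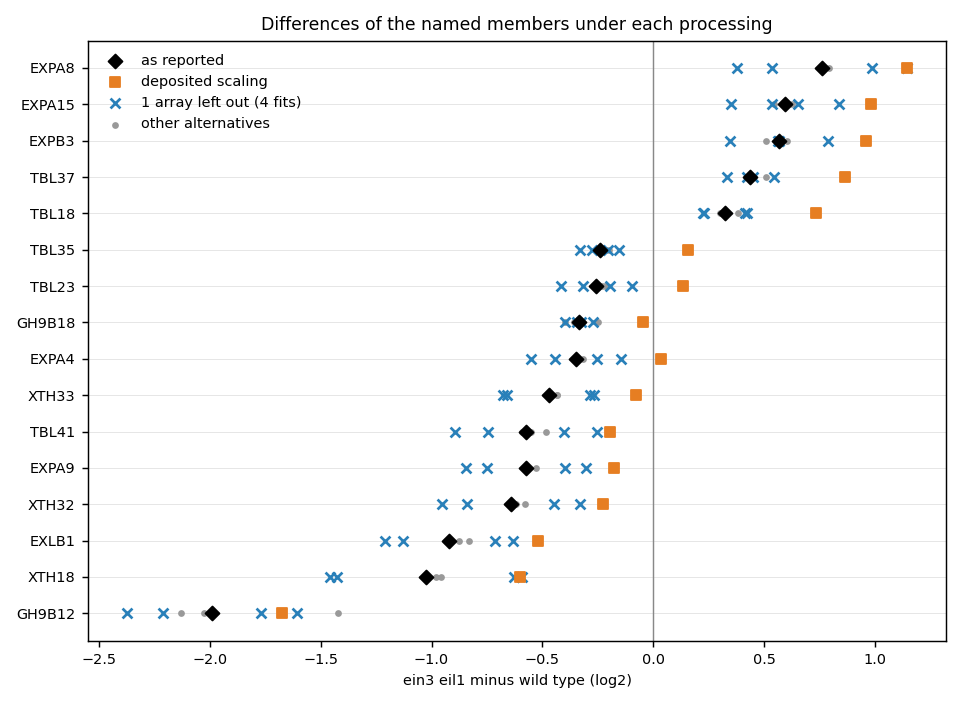
Differences of the 16 members named by rule (ein3 eil1 minus wild type, log2) as reported (black diamonds), in deposited signals (orange squares), with 1 array left out (blue crosses) and under the other alternatives (grey dots). Deposited signals shift every member to the right, and EXPA4, TBL23 and TBL35 cross 0 there.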

How the data were processed

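The values the authors deposited are linear intensities, 1 for each probe set on each array, and MAS5 is the tool that the submitters' processing notes name. Its version and scaling target are not given in the sources used here, and no detection calls were used. From the deposited intensities, log2(value + 3) was taken and quantile normalised between the 4 arrays, so a difference understates the change of dim probe sets. The 64 Affymetrix controls were left out of the tests. Genotypes were then set against each other in limma 3.58.1 (R 4.3.3) by lmFit and trended eBayes, two-sided, and p values were adjusted over the 14031 tested probe sets by the Benjamini-Hochberg method. The fit without the block was checked on simulated arrays with independent noise. The simulation held no array pairs, and the fit with the block was not checked.

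Of the 64 members, 64 matched a RefSeq gene (TAIR10.1) with the same symbol. RefSeq served for names and gene order only. The searches of promoters and proteins that were planned had no sequence table and were not run. Members and lists were chosen with earlier results of these data known. Full values are given for members past the threshold in either fit and, in each family, up to 3 highest and 3 lowest differences without overlap, which names 16. PEX4 and PRP39 matched a pattern of the structural protein list but are not wall genes, and were left out after their values were seen. The light-grown leaf and xylem lists had no named probe set here, and CLV3 and MUTE were too dim. The titles call the second array of each genotype a biological replicate, but nothing in the labels says whether plants were grown separately. The p values set a difference against the spread between these arrays, with variances moderated over all tested probe sets. Part of that spread may be technical. The gaps between the arrays of a genotype correlated between genotypes (r = 0.43 over all tested probe sets) when paired by title, and with 2 pairs this does not establish pairing. Figures were drawn with matplotlib 3.10.9.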

Additional observations from a re-analysis of the deposited data

How the results depend on the processing

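Under 13 alternatives no member was called higher. Members were called lower under 1 of them, the array pair as a replicate block, which called 2 (XTH18 and GH9B12). The sign of GH9B12 was fixed by the filter. Without 1 array in turn 0 members were called in either direction. The count over all probe sets, 41 in the fit reported, was 14 without a filter, 95 in deposited signals, 72 with median centring and 391 with the replicate block, and ran from 107 to 244 without 1 array in turn (107 without wild type replicate 2, 132 without ein3 eil1 replicate 1, 184 without ein3 eil1 replicate 2, 244 without wild type replicate 1). Lower probe sets made up 73.2% of the calls as reported, 37.9% in deposited signals and 68.1% with median centring.

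The member median of -0.15 was 0.26 in deposited signals, or -0.14 relative to all tested probe sets there, and 0.017 with the 60th percentile filter, which tested 29 members; without 1 array in turn it ran from -0.15 to -0.082. The 14 members below wild type without overlap were 2 in deposited signals, 7 with median centring and 9 with the 60th percentile filter. Of all tested probe sets, 2.58%, 13.1% and 14.3% lay so. The 14 were 12 without probe sets that passed the filter through 1 genotype alone (chosen after seeing the data), where 14.3% of all probe sets lay so. The 6 above wild type were 10 in deposited signals, where 33.3% of all tested probe sets lay above. Of the 16 named members, 13 kept their sign under every alternative in which they were tested. EXPA4 (0.035), TBL23 (0.14) and TBL35 (0.16) turned in deposited signals, where the median of all tested probe sets was 0.40. Without 1 array in turn XTH18 ran from -1.46 (without wild type replicate 1) to -0.59 (without wild type replicate 2), and GH9B12 from -2.37 to -1.60. Over all alternatives the limma adjusted p ran from 0.0296 to 1 for XTH18 and from 0.0473 to 0.691 for GH9B12. The number of arrays, 2 per genotype, limits all of these values, and signal over background could not be read without detection calls.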

Other observations

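The 4 probe sets of these families that name several genes were all too dim to be tested. The probe set shared by GH9B14 and GH9B15 had normalised log2 signals of 5.01 and 4.12 in ein3 eil1 and 6.12 and 5.14 in wild type. That shared by EXPA23 and EXPA25 had 2.66 and 2.68 in ein3 eil1 and 3.46 and 4.01 in wild type. The other two, for EXPA22 with EXP26 and for GH9B9 with GH9B10, had 2.02 to 3.21 and 2.14 to 2.90 in ein3 eil1, and 2.30 to 2.33 and 1.75 to 3.84 in wild type.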
